A study of Mus musculus with 5 samples.

Results

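The promoters described here belong to genes used mainly in germ cells, and their contacts were measured in the somatic supporting cells of the mouse gonad. They are defined by gene name: baits on chromosomes 1 to 9 whose gene symbol starts with Sycp, Syce, Hormad, Tdrd, Tdrkh, Spata, Spag, Tex followed by a digit, Meiob, Meioc, Msh4, Msh5, Piwil, Tssk or Adad, or equals Stra8, Spo11, Mael, Figla or Bub1b. The rule itself uses no score, but a bait is in the tables only if at least 1 of its interactions was called. In the table of original baits, where a bait is a single DpnII restriction fragment, 36 baits of 31 genes met the rule, of 7674 baits with interactions on their own chromosome (cis) on chromosomes 1 to 9 and 8051 in the whole table. In the table of extended baits, which are windows of about 5 kb, 57 baits of 50 genes met it, of 11063 on those chromosomes and 11523 in all. Of 68 RefSeq coding genes that fit the rule on these chromosomes, 53 had a bait with cis interactions in at least 1 table, 28 of them in both. Counted by cis interactions, Spata6, Syce1l and Tex48 were in the original table only. The extended table alone held 22 genes: Stra8, Figla, Hormad1, Sycp1, Syce1, Tdrd12, Tssk6, Adad2, Spag4, Spag6, Spag11b, Spata4, Spata5, Spata18, Spata46, Tex12, Tex26, Tex30, Tex45, Tex46, Tex101 and Tex261. The other 15, among them Spo11 and Tdrd5, had no cis interaction listed and are not analysed here. Of these, Tex24 had a contact between chromosomes, which is given at the end with that of Syce1l.

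Promoter capture Hi-C ligates pieces of DNA that lie near each other in the nucleus, pulls out the ligation products that contain a gene promoter (the bait) and finds the other end by sequencing. The cells were sorted from mouse gonads at stage E13.5 (embryonic day), just after the gonad has become a testis or an ovary. Sertoli cells, the supporting cells of the testis, were taken by GFP from embryos carrying Sox9IRES-GFP (3 libraries), and pre-granulosa cells, their counterparts in the ovary, by mCherry from embryos carrying Enh8-mCherry (2 libraries), with about 100000 cells in each library. The cell types rest on these reporters, which the labels do not describe further, and could not be checked against marker genes because the contact tables hold no expression values. Each table gives 1 CHiCAGO score per interaction and cell type, a weighted significance of contact over the background of that bait and distance, and a score of at least 5 is a call. The libraries of a cell type share 1 score, so no value below has a spread between replicates, no test between the cell types was possible, and the depth is unknown. The 95% intervals given cover counting error only and take calls as independent, although neighbouring bins share signal. A higher number of calls in a cell type can come with more libraries or reads, which cannot be told apart here from more contacts.

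Germ cells enter meiosis in the fetal ovary at about this stage, while in the testis they do so only after birth. Stra8 opens the programme, Hormad1 and Sycp2 build the axes along which homologous chromosomes are held, and Sycp1, Syce1, Syce2 and Tex12 form the synaptonemal complex between them. Msh4 stabilises crossover intermediates. The piRNA pathway, with the PIWI proteins Piwil1 and Piwil4, Mael, and Tudor-domain proteins such as Tdrkh, Tdrd7 and Tdrd12, silences transposons in the germ line. Supporting cells surround the germ cells but do not themselves enter meiosis, and many promoters of this kind are kept silent in somatic cells by methylation or by E2F6 and MGA complexes, which bind E2F sites and E-boxes.

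Promoter sequences were read for 45 of the 53 genes, as 300-base windows from 250 bases before to 50 after the annotated start (RefSeq, build GRCm38.p6). Printed here are the promoters of 3 chromosome axis and synaptonemal complex genes that hold both motifs searched, Hormad1, Syce2 and Tex12, then Mael with an E-box, and Stra8 and Figla, the meiotic entry and oocyte genes, with neither. Hormad1, Syce2, Tex12 and Mael were picked after their motifs were seen. Each runs 5′ to 3′ on the strand of its gene, and capitals mark the E-box CACGTG, the E2F-type motif GGCGGGAA on either strand, and the DpnII site GATC.
Hormad1 (chr3:95559427-95559726, plus strand): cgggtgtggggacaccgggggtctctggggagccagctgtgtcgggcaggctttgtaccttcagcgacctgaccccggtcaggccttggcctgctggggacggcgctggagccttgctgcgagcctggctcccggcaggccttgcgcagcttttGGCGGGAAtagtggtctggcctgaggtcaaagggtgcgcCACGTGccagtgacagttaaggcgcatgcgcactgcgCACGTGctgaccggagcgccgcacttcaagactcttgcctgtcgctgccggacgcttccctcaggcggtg
Syce2 (chr8:84872008-84872307, plus strand): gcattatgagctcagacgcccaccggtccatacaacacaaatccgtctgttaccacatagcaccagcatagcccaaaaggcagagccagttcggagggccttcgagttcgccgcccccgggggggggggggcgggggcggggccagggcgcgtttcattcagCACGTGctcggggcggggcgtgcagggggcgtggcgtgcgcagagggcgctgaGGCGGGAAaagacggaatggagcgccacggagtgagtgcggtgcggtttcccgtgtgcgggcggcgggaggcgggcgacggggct
Tex12 (chr9:50561219-50561518, minus strand): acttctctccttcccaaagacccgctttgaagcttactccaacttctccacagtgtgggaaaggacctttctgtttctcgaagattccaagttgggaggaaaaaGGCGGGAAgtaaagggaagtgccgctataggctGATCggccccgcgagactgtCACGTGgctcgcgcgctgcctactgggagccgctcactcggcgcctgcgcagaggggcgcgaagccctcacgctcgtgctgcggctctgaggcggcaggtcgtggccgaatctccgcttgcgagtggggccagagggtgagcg
Mael (chr1:166238695-166238994, minus strand): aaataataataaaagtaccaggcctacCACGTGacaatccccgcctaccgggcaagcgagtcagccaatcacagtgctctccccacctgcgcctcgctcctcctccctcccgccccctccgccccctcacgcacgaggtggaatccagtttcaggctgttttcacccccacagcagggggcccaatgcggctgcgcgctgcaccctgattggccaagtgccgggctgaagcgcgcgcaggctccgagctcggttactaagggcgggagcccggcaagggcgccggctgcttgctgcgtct
Stra8 (chr6:34920698-34920997, plus strand): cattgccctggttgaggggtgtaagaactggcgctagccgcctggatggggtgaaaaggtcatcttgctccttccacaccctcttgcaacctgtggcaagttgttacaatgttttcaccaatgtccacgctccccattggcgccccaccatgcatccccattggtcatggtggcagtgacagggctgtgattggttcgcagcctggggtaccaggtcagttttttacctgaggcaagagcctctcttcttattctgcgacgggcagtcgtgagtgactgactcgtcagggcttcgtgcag
Figla (chr6:86016941-86017240, plus strand): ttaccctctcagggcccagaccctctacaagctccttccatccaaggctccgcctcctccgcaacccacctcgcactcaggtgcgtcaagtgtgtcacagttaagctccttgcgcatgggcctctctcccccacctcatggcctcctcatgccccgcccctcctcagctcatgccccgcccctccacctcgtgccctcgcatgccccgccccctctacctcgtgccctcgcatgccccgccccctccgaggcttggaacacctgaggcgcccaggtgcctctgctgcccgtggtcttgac
In Hormad1 the E-boxes began at positions -57 and -20 from the start and the E2F-type motif at -96. In Syce2 these positions were -88 and -35, in Tex12 -93 and -146, and the E-box of Mael began at -223.

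Motif shares were above those of all baited promoters, on small counts. An E-box was found in 7 of 45 genes (15.6%, 95% Wilson interval 7.75 to 28.8), against 864 of 9907 genes in that background (8.72%). These were Adad2, Hormad1, Mael, Syce1l, Syce2, Sycp1 and Tex12. The E2F-type motif was in 5 of the 45 genes (11.1%, 4.84 to 23.5), Hormad1, Spata5, Syce2, Tex12 and Tex26, against 3.52% of all. Both motifs together were in 3 genes (6.67%, 2.29 to 17.9), against 47 of 9907 (0.474%). Base composition was close to that of all promoters: the median GC content over 52 member promoters was 55.5% against 56.7%, and the median number of CpG sites 12.5 against 13. A DpnII site lay in 21 of these 52 windows (40.4%, 28.2 to 53.9), against 46.5%. Counted by promoter, the E-box was in 8 of 52 (15.4%, 8.01 to 27.5) against 7.55% of 12047, and the E2F-type motif in 6 (11.5%, 5.40 to 23.0) against 3.06%. The E-box interval thus contains the background by gene and narrowly misses it by promoter. The intervals of the E2F-type motif lie above it in both counts. The counts by promoter include near-identical Hormad1 windows, starting at 95559427 and 95559429, which hold the same motifs. Windows of a gene that overlap are not independent, so the narrow miss by promoter adds nothing to the count by gene. Motif matches describe letters in the window and say nothing of whether a factor was bound.

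Germline gene baits made contacts called in both supporting cell types, more of them in Sertoli cells, at close to the rate of any bait. Of 124 listed interactions in the original table, 101 were called in Sertoli cells, where the background over all cis baits is 80.2%, and 51 in pre-granulosa cells, where it is 41.5%. The ratio of calls was 1.98 (95% interval 1.42 to 2.77) against 1.93 over all baits. With the Sertoli threshold raised to 6.42, at which all baits have as many Sertoli as pre-granulosa calls, the germline gene baits had 55 and 51, a ratio of 1.08. Calls shared by both cell types numbered 28, or 22.6% (16.1 to 30.7), against a background of 21.7%. Sertoli cells alone had 73 (background 58.5%) and pre-granulosa cells alone 23 (background 19.8%). By bait, 24 of 36 had more Sertoli calls (66.7%, background 65.2%), 6 had more pre-granulosa calls (background 22%) and 6 had equal numbers (background 12.7%). None of these shares stood apart from the background by more than its counting interval.

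**Figure D1:**
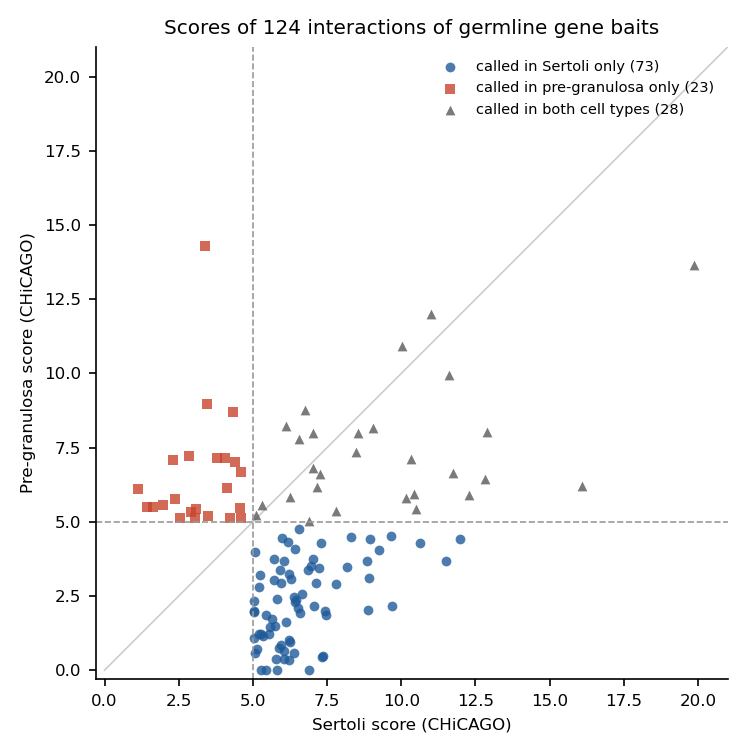
Each point is 1 of the 124 listed interactions of germline gene baits in the original table, with its Sertoli score on the horizontal axis, its pre-granulosa score on the vertical axis, dashed lines at the call threshold of 5 and a grey line of equal scores. The 73 interactions called in Sertoli cells alone spread down to a pre-granulosa score of 0, while none of the 23 called in pre-granulosa cells alone has a Sertoli score under 1.

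Many calls in a single cell type were near the threshold in the other. Of the 73 interactions called in Sertoli cells alone, 27 (37.0%, 26.8 to 48.5) scored at least 3 in pre-granulosa cells, against 33.9% of such interactions of all baits. Of the 23 called in pre-granulosa cells alone, 14 (60.9%, 40.8 to 77.8) scored at least 3 in Sertoli cells, against 48.3%. None of these 23 had a Sertoli score under 1, against 9.71% over all baits, a share within the interval of 0 of 23 (0 to 14.3). Among extended baits it was 0 of 34 (0 to 10.2) against 12.3%, which lies outside that interval. In the plot of both scores, 4 Sertoli calls lie on the axis at a pre-granulosa score of 0, those of Tex15-204, Tex37-201, Tdrkh-204 and Syce1l-202. The sources used here do not say whether a listed 0 means that no read pair was found, and most of the largest differences toward Sertoli cells given below rest on such values.

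Contacts were spread unevenly over the baits, as in the table as a whole. The 5 baits with most interactions, Spata3-206, Tdrkh-204, Tex44-201, Tssk3-201 and Spata45-202, held 56 of the 124 (45.2%). The median bait had 2 listed interactions, as over all baits, and the mean was 3.44 against 3.78. Of the 36, 13 had 1 (36.1%, against 35.2% of all baits), 13 had 2 or 3 and 10 had at least 4 (27.8%, against 34.4%). Sertoli calls alone were found at 15 baits, and pre-granulosa calls alone at 4, Bub1b-201, Adad1-203, Tex38-201 and Spata33-207. Such baits were not counted over the whole table, so these numbers cannot be read as a trait of germline gene baits. Without the 5 top baits, 55 Sertoli and 24 pre-granulosa calls remained, a ratio of 2.29.

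**Figure D2:**
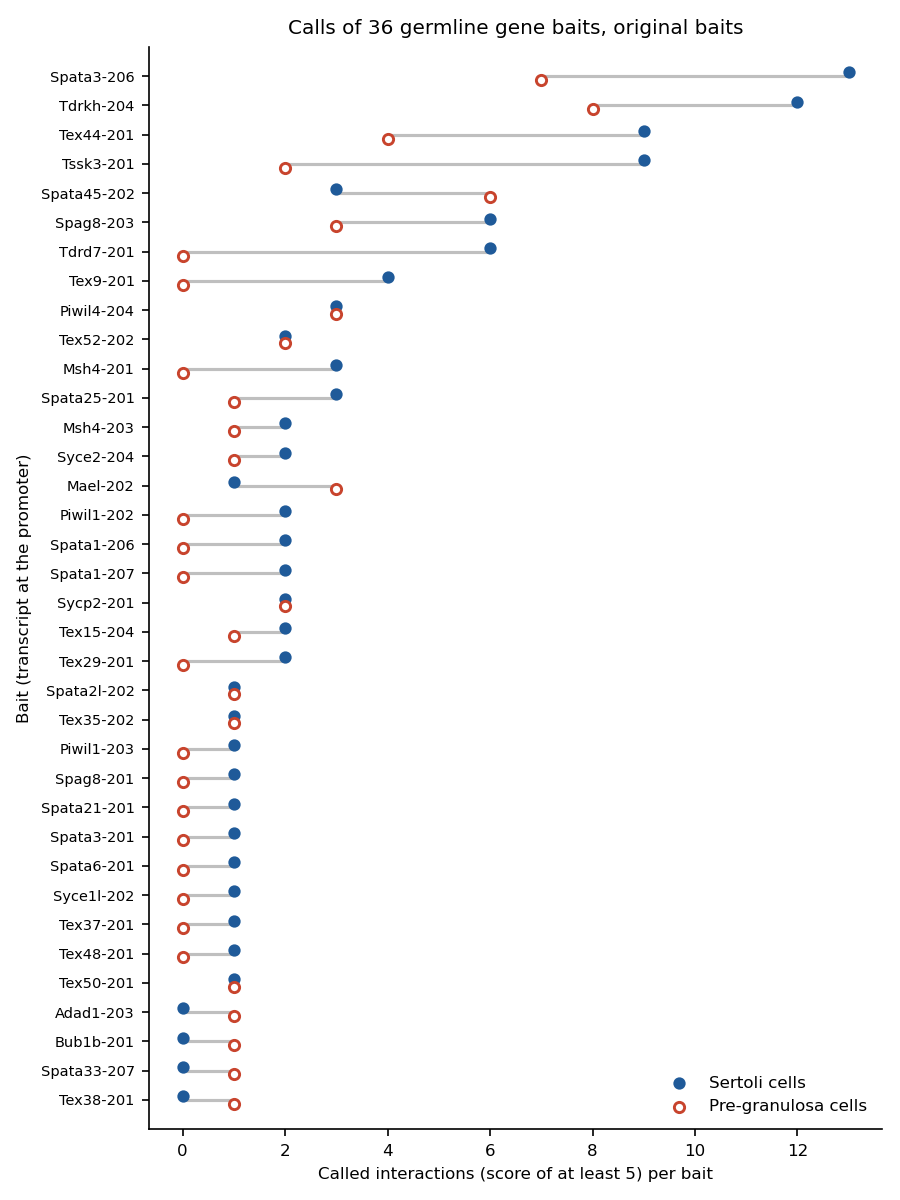
The horizontal axis gives the number of called interactions of each of the 36 original baits (rows, named by transcript), with filled points for Sertoli cells and open points for pre-granulosa cells, joined by a line. Spata3-206 and Tdrkh-204 have most calls, Tdrd7-201 has 6 Sertoli calls and none in pre-granulosa cells, and Spata45-202 and Mael-202 have more pre-granulosa calls.

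Among the Hormad, Syce and Sycp genes, 3 had an original bait, with 5 Sertoli and 3 pre-granulosa calls. Sycp2-201 (chr2:178406892-178408020), at the start of the axis component Sycp2, scored 7.01 in Sertoli and 6.82 in pre-granulosa cells with a bin inside Sycp2 at -7.50 kb. With a bin in the neighbouring gene Fam217b at 10.2 kb it scored 6.89 and 5.03. Distances are signed by genome coordinate, positive toward higher coordinates. Both Sycp2 contacts were therefore called in both cell types.

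Syce2-204 (chr8:84871927-84873818), at the start of a central element gene, had contacts that differed by cell type. A bin in Nfix, a transcription factor gene, at -136 kb scored 6.03 in Sertoli and 0.374 in pre-granulosa cells, and one at 24.4 kb scored 7.47 and 1.85. The bin at -23.2 kb, at the start of the noncoding 1700122E12Rik, went the other way, with 3.49 and 5.18. Syce1l-202, at the start of a relative of Syce1, had 1 contact, at 342 kb, with 5.26 in Sertoli cells and a listed 0 in pre-granulosa cells. That was the most distant interaction of the whole set in the original table.

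The crossover gene Msh4 has adjoining baits, Msh4-203 (chr3:153904415-153904863) and Msh4-201 (chr3:153904864-153907131), which together had 5 Sertoli calls and 1 pre-granulosa call. From Msh4-201, bins in the fatty acid oxidation gene Acadm at 24.4 kb and 35.1 kb scored 6.05 and 5.06 in Sertoli and 3.66 and 0.595 in pre-granulosa cells, and a bin beyond it at 57.1 kb scored 6.25 and 0.948. From Msh4-203, a bin inside Msh4 at -4.04 kb scored 6.19 and 4.33, and one in Slc44a5 at 325 kb scored 5.03 and 2.32. The only pre-granulosa call was at the start of the adjacent gene Rabggtb, at 4.98 kb, with 3.45 in Sertoli and 8.98 in pre-granulosa cells. Extended windows gave calls in both directions. The joint extended Msh4 bait had 1 Sertoli call and 3 pre-granulosa calls. Its bins at -20.9 and -10.5 kb scored 2.64 and 2.36 in Sertoli and 8.58 and 7.81 in pre-granulosa cells. The bin at 57.2 kb scored 6.15 and 1.05, a Sertoli call as in the original table. The Slc44a5 bin, which is the same in both tables, changed to 4.95 and 5.46. Other extended baits contacted the Msh4 window with higher Sertoli scores: from Acadm-201 it scored 19.9 in Sertoli and 1.60 in pre-granulosa cells, and from Slc44a5-201 5.28 and 2.79.

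Bub1b-201, at the start of the spindle checkpoint kinase gene Bub1b, which dividing somatic cells also use, had 1 contact at -110.1 kb with 4.24 in Sertoli and 5.13 in pre-granulosa cells. The scores lie close together, on either side of the threshold.

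Baits of the piRNA pathway and Tudor genes held 31 interactions of 5 genes, 25 called in Sertoli and 14 in pre-granulosa cells, 8 of them in both. Tdrkh-204 (chr3:94421782-94424150) had 15 listed interactions, 12 called in Sertoli and 8 in pre-granulosa cells. This bait lies inside Tdrkh, 8.54 kb from its nearest RefSeq start, and so marks an annotated alternative transcript. Its contact at -6.67 kb, within Tdrkh, had the highest Sertoli score of the set, 19.9, with 13.6 in pre-granulosa cells. On the lower-coordinate side, the bin in Lingo4 at -19.8 kb scored 12.8 and 6.44. The bin at -56.9 kb in C2cd4d scored 8.90 and 3.10, and the bin at -14.5 kb 4.14 and 6.12.

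On the other side of Tdrkh-204, the bins at 8.85 kb, over Tdrkh and the testis antizyme gene Oaz3, and at 17.2 kb were called in both cell types, with 11.7 and 6.66 and with 11.6 and 9.96. Bins at 23.9 kb in Mrpl9 and at 29.0 kb were Sertoli calls, with 6.65 and 2.55 and with 5.04 and 2.005. Farther out, bins in the endosomal sorting gene Snx27 scored 5.64 and 1.72 at 85.8 kb and 5.45 and 0 at 124 kb. Neighbouring bins at 179 and 185 kb pointed opposite ways, with 3.06 and 5.13 and with 6.04 and 0.639. All contacts of this bait within 20 kb scored above 4 in both cell types, and the 4 beyond 80 kb were each called in a single cell type.

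Piwil4-204 (chr9:14704851-14705647), 12.7 kb from the nearest RefSeq start of Piwil4, had a single stretch of 4 adjoining bins far from the bait and no listed contact nearer. At -196 kb, in the splicing factor gene Cwc15, it scored 4.32 in Sertoli and 8.71 in pre-granulosa cells. The next bins scored 11.0 and 12.0 at -190.1 kb, 8.94 and 4.42 at -185 kb, and 12.9 and 8.04 at -179 kb. Each cell type called 3 of the 4 bins. The extended bait of the same name scored 11.3 and 9.999, 7.42 and 5.996, and 9.35 and 9.83 over bins at -194, -188 and -183 kb, all called in both cell types, so the long contact was held by both in both tables. It added the start of Amotl1, an angiomotin family gene, at -92.8 kb, with 4.78 and 11.3.

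**Figure D3:**
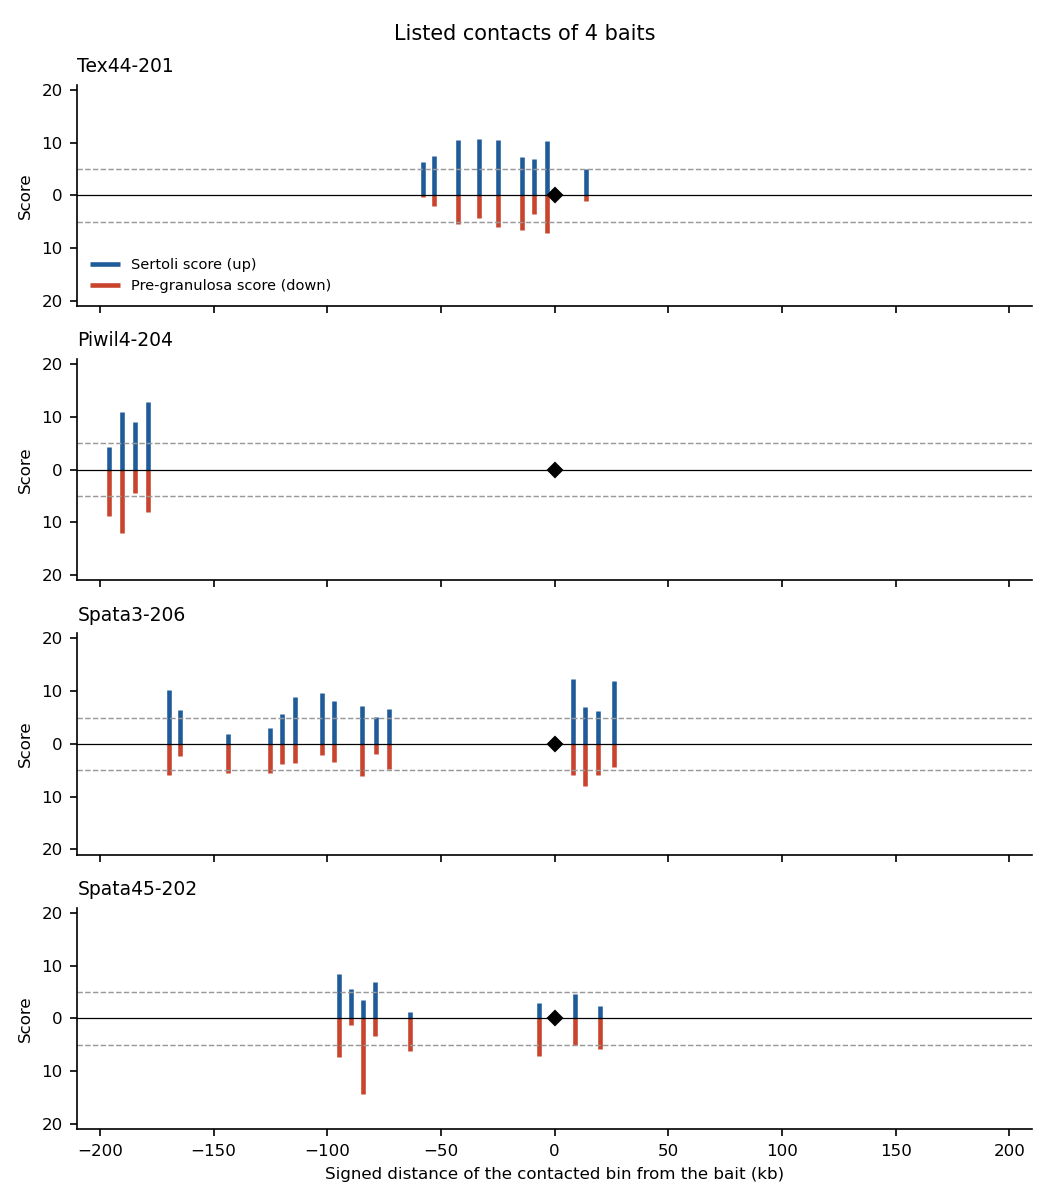
Each panel shows the listed contacts of 1 original bait (black diamond) by signed distance in kb, with the Sertoli score drawn up and the pre-granulosa score drawn down, and dashed lines at the threshold of 5. Tex44-201 has Sertoli scores of up to 10.6 between -58.0 and 13.8 kb, Piwil4-204 has only the stretch between -196 and -179 kb, Spata3-206 has mostly Sertoli calls on its lower-coordinate side, and the tallest bar of Spata45-202 is a pre-granulosa score of 14.3 at -84.5 kb.

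Tdrd7-201 (chr4:45971912-45973769), at the start of the chromatoid body gene Tdrd7, had 6 interactions, all called in Sertoli cells alone. Its Sertoli scores ran from 5.42 to 6.46, all just over the threshold, and its pre-granulosa scores from 0.375 to 2.37. The bin at -28.6 kb in Ccdc180 scored 6.46 and 2.37, and those in Tdrd7 itself at 20.98 and 37.5 kb scored 5.89 and 0.762 and 5.78 and 0.375. In Tmod1, an actin filament capping gene, bins at 69.2, 106 and 122 kb scored 6.11 and 1.63, 5.93 and 0.846, and 5.42 and 1.85. In the extended table, 3 bins were listed, and the start of Tmod1 at 64.9 kb scored 7.44 and 3.03. A bin over Tstd2 at 162 kb scored 6.04 and 8.00, a call in both.

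Mael-202 (chr1:166238407-166239395) was the only piRNA bait with more pre-granulosa calls among original baits, with 3 against 1. Toward Ildr2, a tight junction gene, it scored 4.55 in Sertoli and 5.48 in pre-granulosa cells at 8.09 kb, 4.61 and 6.68 at 13.4 kb over the start of Ildr2, and 6.12 and 8.24 at 74.4 kb. The extended table gave 4.69 and 6.62 at -10.5 kb, 5.66 and 9.38 at 10.4 kb, and 5.74 and 8.195 at 72.3 kb. All 6 pairs of scores were higher in pre-granulosa cells, but the tables come from the same libraries.

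Both Piwil1 baits had Sertoli calls only. Piwil1-202, 1.15 kb from the nearest RefSeq start, scored 6.51 and 2.11 at -217 kb and 6.37 and 0.584 at -201 kb, and Piwil1-203, 32.5 kb from it, scored 6.42 and 4.09 at -4.12 kb. The extended Piwil1-202 bait kept the distant pair, with 5.16 and 2.15 and with 5.23 and 0.477, and added the Rimbp2 promoter at 20.6 kb with 1.90 and 6.35.

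The testis kinase bait Tssk3-201 (chr4:129490315-129491074) had 9 interactions, all of them Sertoli calls and 2 also pre-granulosa calls. Its bin in the neighbouring gene Bsdc1 at -4.62 kb scored 16.1 and 6.19, the Sertoli score next highest to that of Tdrkh. The bin at -9.84 kb, also in Bsdc1, scored 10.01 and 10.9, and those at -20.3 and -25.5 kb scored 7.13 and 2.92 and 8.32 and 4.48. Bins in Hdac1, a histone deacetylase gene, scored 7.29 and 4.28 at 31.7 kb and 5.82 and 2.41 at 49.2 kb. The remaining bins, at 3.41, 96.6 and 119 kb, scored 9.65 and 4.51, 7.05 and 2.18, and 6.203 and 1.01. Sertoli scores were higher at all of these bins but that at -9.84 kb.

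Spata3-206 (chr1:86022042-86023018), 0.097 kb from a RefSeq start of Spata3, had 13 Sertoli and 7 pre-granulosa calls over 15 bins. On the far side, 11 bins between -169.8 and -73.0 kb covered Cab39, Itm2c and Gpr55, of which 7 were called in Sertoli cells alone. In and beside Cab39, bins at -169.8 and -165 kb scored 10.2 and 5.80 and 6.40 and 2.30. In Itm2c, bins at -119.9 and -114 kb scored 5.70 and 3.75 and 8.86 and 3.69, and bins beyond it at -103 and -97.2 kb 9.67 and 2.15 and 8.17 and 3.49. In Gpr55, bins at -84.8, -78.6 and -73.0 kb scored 7.15 and 6.16, 5.04 and 1.97, and 6.54 and 4.76. Higher pre-granulosa scores on this side were found at bins at -144 kb, with 1.98 and 5.58, and at -125 kb in Itm2c, with 3.08 and 5.43. On the near side, bins at 8.24, 13.4, 19.0 and 26.3 kb scored 12.3 and 5.91, 7.02 and 7.99, 6.26 and 5.84, and 12.0 and 4.43. Near contacts were thus mostly shared, and far contacts mostly called in Sertoli cells. Tex44-201 (chr1:86425990-86426421), on the same chromosome, had 9 Sertoli calls, from 5.04 to 10.6, and 4 pre-granulosa calls. The shared ones lay at -42.5 kb in Nmur1 (10.5 and 5.42), -25.0 kb (10.4 and 5.93), -14.5 kb (7.25 and 6.605) and -3.47 kb (10.3 and 7.12). The others scored 6.22 and 0.345 at -58.0 kb, 7.43 and 1.99 at -52.9 kb, 10.6 and 4.30 at -33.2 kb, 6.95 and 3.53 at -9.23 kb, and 5.04 and 1.07 at 13.8 kb.

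Spata45-202 (chr1:191036370-191036826) had more pre-granulosa calls among original baits, with 3 Sertoli and 6 pre-granulosa calls over 8 bins, but not in the extended table, with 7 and 6 over 9. A bin in Vash2, a tubulin carboxypeptidase gene, at -84.5 kb had the highest pre-granulosa score of the set, 14.3, against 3.38 in Sertoli cells. The bins on either side of it, at -89.7 and -79.2 kb, scored 5.55 and 1.22 and 6.86 and 3.37, so Sertoli and pre-granulosa calls alternated over adjoining bins. At -63.5 kb, still in Vash2, the scores were 1.12 and 6.11, the largest difference toward pre-granulosa cells on the asinh scale (-1.54). The bin at -95.0 kb in Angel2 was called in both, with 8.46 and 7.34. Near the bait, bins at -7.03, 8.74 and 19.9 kb scored 2.86 and 7.22, 4.58 and 5.12, and 2.36 and 5.76. In the extended table, the bin that overlaps the one at -63.5 kb went the other way, with 5.41 in Sertoli and 4.69 in pre-granulosa cells at -60.8 kb, and one at -43.2 kb scored 5.64 and 3.26. There the start of Flvcr1, a transporter gene, at -11.2 kb scored 7.82 and 16.5, and the bin at -87.7 kb 5.66 and 10.4, while that at -82.5 kb was higher in Sertoli cells with 6.83 and 4.75.

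The other baits with 4 or more interactions were Spag8-203, Tex52-202 and Tex9-201. Spag8-203 (chr4:43652119-43652497) had 6 Sertoli calls, 3 of them shared, at -16.4 and -6.87 kb in the natriuretic peptide receptor gene Npr2 (9.06 and 8.15, 8.54 and 7.99) and at 12.5 kb in Fam221b (6.75 and 8.75). Its other bins, at 7.33, 20.65 and 48.5 kb, scored 5.96 and 4.47, 5.33 and 1.17, and 5.27 and 1.22. Tex52-202 divided evenly: bins at -5.21 kb in the cell cycle factor gene Foxm1 and at 13.7 kb scored 4.40 and 7.03 and 4.07 and 7.17, and bins at 18.8 and 37.7 kb scored 9.26 and 4.05 and 5.21 and 2.80. Tex9-201 had 4 calls in Sertoli cells only, 3 of them inside Tex9: 5.90 and 3.38 at -12.3 kb, 5.70 and 3.03 at 8.81 kb, and 5.25 and 3.21 at 14.6 kb. The bin beyond the gene at 35.9 kb scored 5.74 and 1.49.

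Of the smaller baits, several held the largest differences between the cell types. Toward Sertoli cells these were Tex15-204 with Wrn, a helicase gene, at -218 kb (6.91 and 0, asinh difference 2.63), Tex37-201 at -113 kb (5.82 and 0, 2.46), the Tdrkh bin in Snx27 (2.40), the Syce1l bin (2.36) and Spata25-201 with Zfp335 at 69.7 kb (7.33 and 0.447, 2.26). Toward pre-granulosa cells, beside the 2 Vash2 bins of Spata45, they were Spata33-207 at -102 kb (1.43 and 5.52, -1.26), Spata2l-202 in Cdk10 at -8.63 kb (1.64 and 5.51, -1.14) and Tex38-201 in Efcab14 at -8.94 kb (2.32 and 7.07, -1.08). Several of these rest on a score only just over 5 in a single cell type. The Spata33 bait also holds the start of Chmp1a, so its contact cannot be given to Spata33 alone.

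The median distance of Sertoli calls was above that of pre-granulosa calls, but the intervals overlap and the difference was not tested. The Sertoli median was 35.1 kb (95% order-statistic interval 23.9 to 56.9) against 42.6 kb for all baits, and that of pre-granulosa calls 17.2 kb (12.5 to 42.5) against 26.0 kb. Without contacts under 10 kb the medians were 57.1 and 50.8 kb, and over all baits 64.7 and 51.4 kb. At 200 kb or more there were 6 Sertoli calls, 5.94% (2.75 to 12.4), against 6.99% over all baits, and no pre-granulosa call among 51 (0 to 7.005%) against 5.06%. The 6 were those of Msh4-203, Syce1l-202, Tex15-204 and Piwil1-202 given above (2 for Piwil1-202), and Tex48-201 in Tnfsf8 at 219.6 kb with 7.37 and 0.473. Each of these intervals contains the value of all baits.

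**Figure D4:**
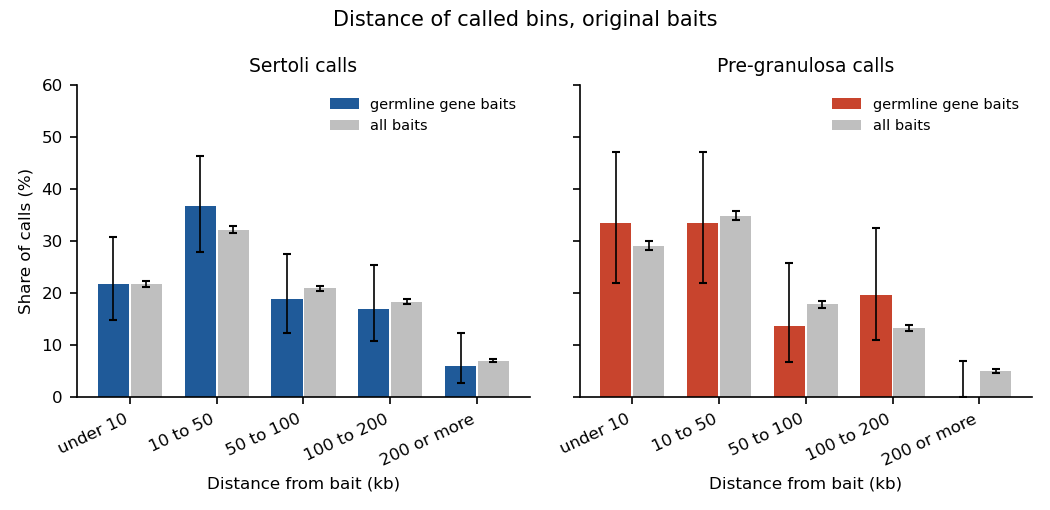
Bars give the percentage of calls in 5 classes of distance from the bait, in kb, for germline gene baits (coloured, 101 Sertoli and 51 pre-granulosa calls) and all cis baits (grey), and error bars are 95% Wilson intervals. Each grey bar is within the interval of the coloured bar beside it, and no pre-granulosa call of a germline gene bait is at 200 kb or more.

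A lower share of contacted bins than over all baits lay in the bait's own gene. Of 124 other ends, 17 (13.7%, 8.74 to 20.9) overlapped it, against 29.9% over all baits, and among extended baits 8.76% (5.68 to 13.3) against 20.7%. The genes themselves were shorter, with a median of 15.3 kb against 19.3 kb, and whether length accounts for the gap was not tested. Any coding gene was overlapped by 63.7% (55.0 to 71.6), against 72.4%. An annotated start of their gene was held by 24 of 33 baits with a RefSeq promoter (72.7%, 55.8 to 84.9), against 55.1%, and by 42 of 51 extended baits (82.4%, 69.7 to 90.4), against 72.2%, which that interval contains.

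The extended table listed more germline promoters than the original one and held no contact under 10 kb. Of 217 interactions, 183 were called in Sertoli cells (background 78.7%) and 113 in pre-granulosa cells (background 55.9%), a ratio of 1.62 (1.28 to 2.05) against 1.41. Both cell types called 79 (36.4%, 30.3 to 43.0, background 34.6%), Sertoli cells alone 104 (background 44.1%) and pre-granulosa cells alone 34 (background 21.3%). The share called in pre-granulosa cells alone was below its background, and the share called in Sertoli cells above its own. These are the same count seen from either side, and no interval was computed for them. More Sertoli calls were found at 34 baits (59.6%, background 53.6%), more pre-granulosa calls at 12 (background 26.4%), and equal numbers at 11 (background 20%).

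Stra8-201, at the gene that opens meiosis, had 3 named contacts in this table. With the start region of Agbl3, a tubulin deglutamylase gene, at -140.1 kb it scored 9.72 in Sertoli and 8.92 in pre-granulosa cells. With Cyren at -41.8 kb the scores were 7.17 and 4.03, and with Slc23a4 at 60.2 kb 2.89 and 6.49. The farthest contact was shared and the nearer ones were called in different cell types. Figla-201, at the oocyte transcription factor gene, contacted Nat8 at -181 kb with 10.4 and 1.11, Tprkb at -98.5 kb with 1.61 and 6.06, and an unnamed bin at -76.9 kb with 6.11 and 0.419. No contact of Figla was called in both cell types.

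Hormad1-202 contacted the start of Ctss, the cathepsin S gene, at -28.3 kb with 14.4 in each cell type, the highest score read from a bait of the Hormad, Syce, Sycp, Msh4, Stra8 and Figla genes. Its contacts with Ensa at 65.6 kb and Tars2 at 199.7 kb were called in pre-granulosa cells only, with 3.60 and 5.73 and with 4.78 and 7.34. Sycp1-201 had 1 contact, with the nuclear receptor gene Nr1h5 at 27.9 kb, at 3.71 and 8.08. Syce1-201 had 1 contact, with Olfr527, an odorant receptor gene, at -456 kb, with 9.88 in Sertoli cells and a listed 0 in pre-granulosa cells. It was both the most distant contact and the largest difference of the set (asinh difference 2.99). Sycp2-201 contacted Fam217b at 11.3 kb with 9.04 and 7.18, or 41.8 and 27.6 as read from the Fam217b bait, and Tex12-202 contacted the interleukin gene Il18 at 15.9 kb with 5.52 and 7.30.

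Syce2-204 contacted Gcdh at 21.8 kb with 9.97 and 3.66 and the erythroid factor gene Klf1 at 27.1 kb with 9.82 and 4.23. Its contact with Trmt1 at -188 kb scored 1.99 and 5.14, the reverse order. Bub1b-201 contacted Srp14 at -120.5 kb with 7.83 and 12.1 and Bmf, a cell death gene, at -49.0 kb with 3.83 and 8.28, both higher in pre-granulosa cells, as its original contact was. Over the 5 Hormad, Syce and Sycp genes with an extended bait, each cell type had 6 calls of 10.

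**Figure D5:**
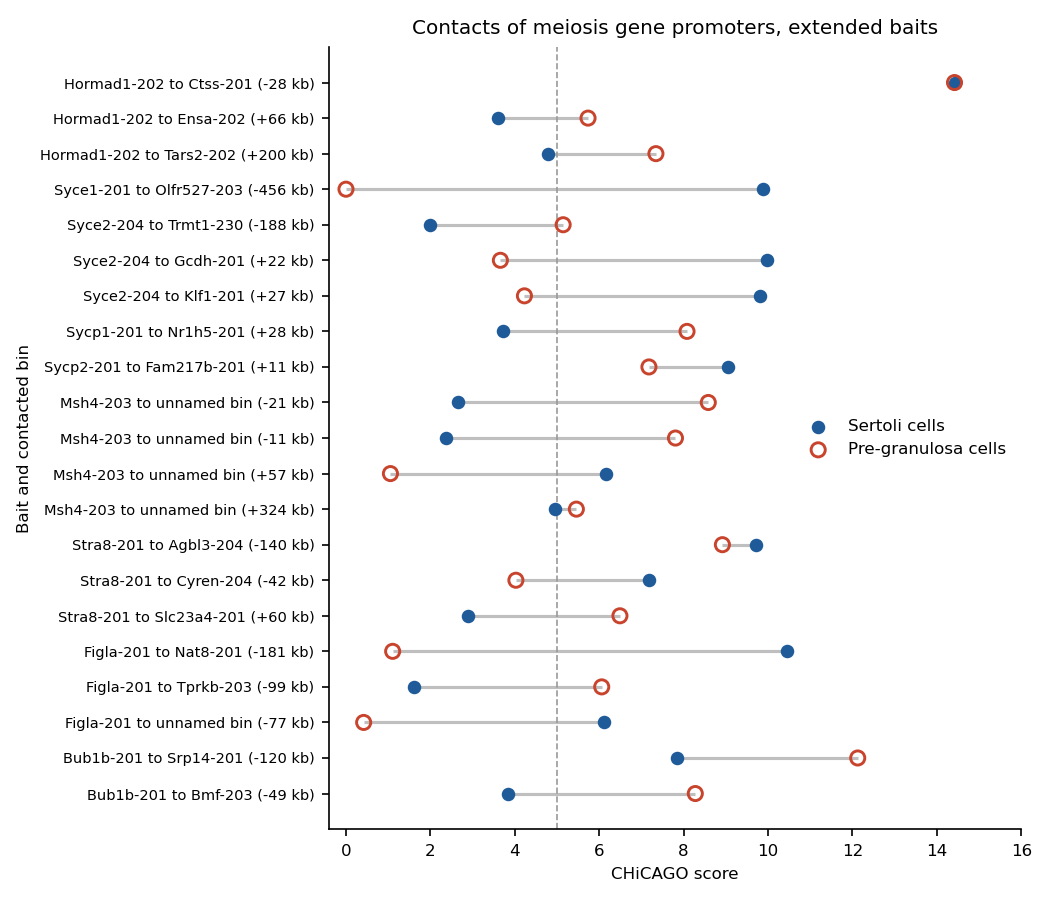
Rows are 21 extended-bait contacts of Hormad1, Syce1, Syce2, Sycp1, Sycp2, Msh4, Stra8, Figla and Bub1b, named by bait, contacted promoter (or unnamed bin) and signed distance, with 1 of the 22 listed contacts, from Syce2, not shown, and the horizontal axis is the CHiCAGO score, filled for Sertoli and open for pre-granulosa cells, with a dashed line at 5. The pair from Hormad1 to Ctss coincides at 14.4, and the pair from Syce1 to Olfr527 is farthest apart, at 9.88 and 0.

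Among the piRNA genes, the extended Tdrkh-202 bait at the gene's start contacted Tdrkh-204, 10.7 kb away in the same gene, with 21.2 and 10.5. Seen from Tdrkh-204 the same pair scored 5.91 and 3.94. Each bait is scored against a background of its own. Tdrkh-204 contacted Lingo4 at -27.4 kb with 7.02 and 11.2, higher in pre-granulosa cells. Tdrkh-202 contacted Snx27 at 169 kb with 5.27 and 0. Tdrd12-206 had 1 contact, with Slc7a9 at -57.4 kb, at 5.59 and 2.62. Piwil4-203 contacted Ankrd49 at 46.5 kb with 8.01 and 7.32 and Piwil4-204 at -32.8 kb with 6.25 and 4.85.

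Pairs of germline gene baits in contact were few, 7 listings, and all but the Spata33 and Spata2l pair lay within a gene. Besides Tdrkh and Piwil4 these were Adad1-204 with Adad1-203 (2.26 and 7.32) and Tex15-201 with Tex15-204 (6.805 and 0.917). Spata33 and Spata2l, 22.1 kb apart on chromosome 8, contacted each other with 4.66 and 8.84 from the Spata33 side and 3.84 and 7.83 from the other. The neighbours differed in a shared target: with Rpl13, a ribosomal protein gene, Spata33 scored 2.97 and 9.96 at -111 kb, and Spata2l 5.56 and 0.997 at -133 kb.

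Besides those of Tdrkh and Hormad1 baits, the highest extended scores belonged to Tex, Spata and Tssk3 baits. Tex44-201 scored 23.6 and 14.0 with the start of Nmur1 at -36.6 kb and 16.1 and 10.5 with another Nmur1 bait at -26.2 kb, and Tex26-201 scored 20.6 and 9.97 with Wdr95 at 92.8 kb. In pre-granulosa cells, Tssk3, in a window shared with Fam229a, reached 14.0 at -10.3 kb, where Sertoli cells had 6.61. Spata3 reached 12.7 at 15.7 kb, where Sertoli cells had 15.1. The largest differences toward Sertoli cells after Syce1 were Tex45-203 with Fcor at 194 kb (7.06 and 0), Tex15-204 with Wrn (6.01 and 0) and Spata3 at -317 kb in Sp100 (5.66 and 0). Toward pre-granulosa cells they were Tex38-201 with Efcab14 (1.19 and 6.17), Adad1-203 at 142 kb (1.02 and 5.08), Spata45-202 with Fam71a at 126 kb (1.69 and 6.76), Tprkb from Figla, and Spata3 at -28.5 kb (1.42 and 5.33). Beyond 200 kb there were also Spata46 at 304 kb (5.68 and 8.23, in a window shared with Gm7694), Spag6-201 with Dnajc1 at -302 kb (7.90 and 1.497) and Spata3 with Cab39 at -229 kb (5.77 and 1.41).

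Promoters contacted by germline genes mostly saw them in return. Of 116 contacted bins that are themselves baits, 74 (63.8%, 54.7 to 72.0) were also listed from the other side, against 68.2% over all baits. The Sertoli call was the same from both sides in 65 of the 74 (87.8%, against 87.8% over all baits) and the pre-granulosa call in 63 (85.1%, against 87.7%). Germline gene windows were in turn the contacted end for other baits in 108 listings over 36 genes, 85 called in Sertoli cells (78.7%), 70 in pre-granulosa cells (64.8%) and 47 in both (43.5%). Over all contacted bins that are baits these shares were 79.1%, 62.1% and 41.3%. The reciprocal scores come from the same read pairs and are no second measurement.

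Between the tables, calls of germline gene baits in a single cell type changed most. The same comparison was not made over all baits. Of the 124 original interactions, 120 had their bait in the extended table and 89 an overlapping bin listed, and the call was the same for 63 of these. Of 24 called in both cell types, 21 stayed so. Of 49 called in Sertoli cells alone, 36 stayed so, 12 became shared and 1 became a pre-granulosa call, and of 16 called in pre-granulosa cells alone, 6 stayed so, 8 became shared and 2 became Sertoli calls. The cell type with the higher score was the same for 75 of the 89.

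Other germ cell genes, a list of 56 such as the zona pellucida gene Zp3, the oocyte factor gene Nobox and the germ cell genes Nanos2 and Nanos3, had 15 genes with an original bait, 66 Sertoli and 37 pre-granulosa calls and a ratio of 1.78. In the extended table, 23 of them had 72 and 62 calls, a ratio of 1.16, with 11 baits having more calls in each cell type. The background ratios were 1.93 and 1.41.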

How the data were processed

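The samples were 3 Sertoli and 2 pre-granulosa promoter capture Hi-C libraries. Per the file headers, the authors deposited 2 tables of CHiCAGO scores, of original and of extended baits, each with 1 score column per cell type, in which every listed interaction has a score of at least 5 in at least 1 cell type. Coordinates are on mm10, per the submitters' processing notes, and the bait starts that lie in a RefSeq promoter window (1005 of 1005) were all at a GATC. The signed distance between bait and contacted bin, another deposited value, is per the file headers. The aligner, the read depth, and how libraries were combined are not given in the sources used here.

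Only cis rows with a bait on chromosomes 1 to 9 were used, and a bait was a member if any of its symbols met the rule. Sharing was counted per bin. Intervals of shares are 95% Wilson intervals, those of ratios come from the Wilson interval of the Sertoli share of calls, and those of medians from binomial order statistics. Scores were compared by the difference of asinh scores. Given with all their listed scores are original baits with 4 or more interactions and original baits of the meiosis, piRNA and Bub1b genes, and their extended contacts are given in part. The 5 highest scores per cell type, the 5 largest differences in each direction, contacts of at least 200 kb and contacts between members are given too, and other baits by counts. A few contacts of Tdrkh and Syce2 baits are not reported here, but enter the counts. The members and lists were chosen with earlier results of these data known. RefSeq (GRCm38.p6) gave gene starts and promoter windows, with 45 of 53 genes matched. Python 3.11.15, pandas 2.3.3, numpy 2.4.6 and scipy 1.17.1 were used, and the counting steps were tested on simulated data. Alternatives were a higher threshold, extended baits, a distance minimum, merged bins, narrower sets of baits and equal numbers of calls per cell type.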

Additional observations from a re-analysis of the deposited data

How the results depend on the processing

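Sertoli calls divided by pre-granulosa calls gave a ratio between 1.52 and 2.32 under the alternatives run, except that it was 1.08, little above even, with equal numbers of calls per cell type over all baits (12025 each, which raises the Sertoli threshold to 6.42), so that all baits are even by construction, and the members then had 55 and 51 calls. At a score of at least 7 there were 43 Sertoli and 21 pre-granulosa calls. Extended baits gave 183 and 113 calls and 36.4% shared, and 91 pre-granulosa calls and 33.1% shared when windows that also name other genes were left out, an alternative chosen after seeing the data. Without the Spata, Spag and Tex families the calls were 44 and 22. Without the 5 baits with most interactions, also chosen after seeing the data, they were 55 and 24. With a minimum distance of 10 kb the median distances were 57.1 kb in Sertoli and 50.8 kb in pre-granulosa cells. Over the alternatives listed at the outset, 31 values stayed within the tolerance (1.5 times for counts, the counting interval for others) and 11 did not, and over those added after seeing the data, 8 did and 4 did not. The cause of these moves beyond the construction of each alternative was not tested. No paired analysis was possible because no score column belongs to a numbered library, and for the same reason no library could be left out. Depth is unknown, so a missing call shows only that the contact was not detectable here.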

Other observations

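Germline gene baits outside the rule's chromosomes or with contacts between chromosomes had pre-granulosa calls only, 5 among original and 3 among extended baits. Most such interactions of all baits were of that kind too: 69.5% of 430 on the X chromosome and 86.6% of 290 between chromosomes were called in pre-granulosa cells alone in the original table, and 89.3% of 253 between chromosomes in the extended one. On the X chromosome, in the original table, Tex11-201, at a meiosis gene, scored 0.661 in Sertoli and 6.98 in pre-granulosa cells with a bin at 20.2 kb, and Tex16-202 scored 4.48 and 9.96 with a bin at -3.66 kb. The X chromosome is present in 1 copy in male and 2 copies in female cells, and the cell types differ in sex, so copy number and cell type cannot be told apart for these baits. Between chromosomes, Piwil1-203, Syce1l-202 and Tex24-201 each had 1 listed contact, listed at 0 for Sertoli cells. Their pre-granulosa scores were 5.11, 5.98 and 5.01 with original baits and 5.26, 5.89 and 6.76 with extended baits. These are values only, and no explanation was tested.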
